A study of Mus musculus with 16 samples.

Results

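Dcxr, Dglucy, Ptp4a3 and Ptpre are 4 genes chosen by a readout of these data: their array signal was higher with 4-hydroxytamoxifen (4OHT) than with vehicle in adult mouse neural stem cells that carry an inducible Cre. Because that contrast selected them, their 4OHT response in the cells with Cre is given as a description, with no test. The arrays hold 22626 probe sets that are not controls, and 6 of them are annotated with only 1 of these symbols. These are 1419456_at for Dcxr, 1424226_at for Dglucy, 1418181_at (brighter) and 1418182_at (dimmer) for Ptp4a3, and 1418540_a_at (brighter) and 1418539_a_at (dimmer) for Ptpre. All 6 are described. The dimmer Ptp4a3 probe set lay under the filter on dim probe sets, and the other 5 were tested. The filter was a mean log2(signal + 16) of 6.07, which corresponds to a signal of 51.1.

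The series used Affymetrix arrays on cultured neural stem cells to look for genes that depend on Tlx, an orphan nuclear receptor that keeps such cells proliferating. The genotype of all 16 cultures includes Tlx(f/Z), where f commonly marks an allele that Cre can delete; Z is not spelled out in the labels. CreER, which 4OHT (4OH-TM in the labels) switches on, was added in 8 cultures, Tlx(f/Z;CreER), and was absent from the other 8. RNA was taken 36 h or 60 h after vehicle or 4OHT, with 2 arrays for each of the 8 combinations. What drives CreER, how old the animals were and how many animals or lines were used is not given in the sources used here. Nothing states that the arrays of a group, named biological replicates, derive from different animals, and the p-values therefore reflect the scatter among these samples. The targeted gene was not analysed here, so the labels were not checked against it.

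Dcxr encodes dicarbonyl and L-xylulose reductase, an NADPH-dependent enzyme of the short-chain dehydrogenase family that makes xylitol from L-xylulose in the uronate cycle and reduces reactive dicarbonyls. Dglucy encodes a mitochondrial D-glutamate cyclase, which turns D-glutamate into pyroglutamate. Ptp4a3 encodes PRL-3, a small prenylated phosphatase that binds the CNNM magnesium transporters and has been reported elsewhere as a target of p53. Ptpre encodes the protein tyrosine phosphatase epsilon, the paralog of Ptpra, which acts on Src family kinases and is made in a membrane and a cytosolic form.

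Promoter sequence is shown for both enzyme genes, the first of which held no match and the second the single match to a motif searched. RefSeq promoters on GRCm38.p6 were at hand for 3 of the 4 genes (1 start for Dcxr, 1 for Dglucy and 3 for Ptpre); Ptp4a3 was not among them. The 250 bases before each start are given 5′ to 3′ on the gene's strand, for Dcxr at chr11:120727285-120727534 (minus strand) and for Dglucy at chr12:100778807-100779056 (plus strand). Capitals mark the match to AAGTCA, the half-site bound by TLX, which lies here on the reverse strand as TGACTT, 60 to 55 bases before the start.
Dcxr: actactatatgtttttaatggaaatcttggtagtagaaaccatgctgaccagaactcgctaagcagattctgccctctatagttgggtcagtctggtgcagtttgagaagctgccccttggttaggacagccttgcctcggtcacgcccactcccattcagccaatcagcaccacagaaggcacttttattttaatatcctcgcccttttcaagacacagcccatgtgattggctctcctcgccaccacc
Dglucy: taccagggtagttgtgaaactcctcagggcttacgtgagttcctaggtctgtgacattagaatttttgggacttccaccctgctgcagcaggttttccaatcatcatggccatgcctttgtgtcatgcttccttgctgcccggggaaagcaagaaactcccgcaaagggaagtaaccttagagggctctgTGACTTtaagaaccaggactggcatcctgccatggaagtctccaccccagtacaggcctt
Both strands were searched for AAGTCA, for TGACNNNGC (the core of the antioxidant response element) and for the p53 response element by its consensus. AAGTCA was found in 13.1% of all 32851 promoter windows of this length, TGACNNNGC in 10.2% and the p53 response element in 0.0639%. The Dcxr window and the 3 Ptpre windows held 0 matches to these motifs, which says only that these letters are not in these windows.

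The arrays differed in overall signal, in part with genotype, and the cells carried neural stem cell transcripts. Median signals lay between 92.2 and 123.1 in CreER cultures and between 108.9 and 132.6 in cultures without Cre. For the 2 arrays of each group r was between 0.988 and 0.991 over all probe sets. Of the 9 neural stem and progenitor cell markers, 8 lay above the filter, among them Nes (1371 to 3428), Sox2 (1239 to 2307) and Fabp7 (4441 to 6980); Prom1 lay below it. Of the markers of other cells, 0 of 4 endothelial, 0 of 4 fibroblast and mural, 1 of 6 microglia and blood, 2 of 6 neuronal, 2 of 4 astrocyte and 2 of 5 oligodendrocyte lineage genes lay above it. The actin 5′/3′ control ratio, which reflects how intact the RNA was and how evenly it was labelled, was 0.548 to 0.666 in cultures without Cre at 36 h, 0.773 to 0.891 in them at 60 h, and 0.716 to 0.882 in CreER cultures.

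Dcxr had the largest difference of the 4 genes, and its treated CreER cultures were the brightest of all. It gave a signal of 173 and 245 in the CreER vehicle arrays at 36 h and of 246 and 203 at 60 h. After 4OHT it gave 523 and 546 at 36 h and 731 and 883 at 60 h, so that all 4 treated arrays lay above all 4 vehicle arrays. Without Cre it gave 445 and 444 (vehicle, 36 h), 461 and 413 (4OHT, 36 h), 350.0 and 394 (vehicle, 60 h) and 514 and 428 (4OHT, 60 h). Every array without Cre was brighter than every CreER vehicle array and dimmer than every CreER 4OHT array. The 4OHT difference in CreER cultures was 1.31 at 36 h and 1.77 at 60 h on the log2(signal + 16) scale, the scale of all log2 values here, and −0.02 and 0.32 without Cre.

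Dglucy gave 141 and 214 under vehicle in CreER cultures at 36 h and 207 and 175 at 60 h. After 4OHT it gave 361 and 352 at 36 h and 422 and 562 at 60 h, again with no overlap with vehicle. The treated CreER arrays lay below all arrays without Cre at 36 h and among them at 60 h. The cultures without Cre gave 655 and 555 (vehicle, 36 h), 593 and 513 (4OHT, 36 h), 405 and 454 (vehicle, 60 h) and 568 and 436 (4OHT, 60 h). The 4OHT difference in CreER cultures was 0.97 at 36 h and 1.29 at 60 h, against −0.13 and 0.21 without Cre.

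Ptp4a3, by its brighter probe set, gave 717 and 934 in CreER vehicle arrays at 36 h and 1328 and 917 at 60 h. After 4OHT this probe set gave 1652 and 1677 at 36 h and 3047 and 3939 at 60 h. The 36 h arrays lay below all 8 arrays without Cre; of the 60 h arrays, 1 lay among them and 1 above them all. Without Cre it gave 3726 and 3786 (vehicle, 36 h), 2837 and 2876 (4OHT, 36 h), 3207 and 3670.5 (vehicle, 60 h) and 3631 and 3071 (4OHT, 60 h). The 4OHT difference in CreER cultures was 1.01 at 36 h and 1.64 at 60 h, against −0.39 and −0.04 without Cre. At 36 h without Cre both 4OHT arrays lay below both vehicle arrays.

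The dimmer Ptp4a3 probe set gave 18.7 to 75.7 over the 16 arrays. Its CreER vehicle arrays gave 18.7, 24.1, 43.3 and 34.9 and its CreER 4OHT arrays 49.3, 33.5, 39.6 and 66.0, in the order 36 h and 60 h. These overlapped at 60 h, and over both times the difference was 0.45 with an SE of 0.20, against 1.32 with an SE of 0.12 for the brighter one. Both probe sets were lowest in CreER vehicle cultures at 36 h.

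Ptpre was dim by both of its probe sets, which target transcripts of the same gene, and both gave the same order of CreER groups. By the brighter one, the CreER vehicle arrays gave 75.4 and 111 at 36 h and 102 and 77.2 at 60 h. After 4OHT the CreER arrays gave 193 and 160.1 at 36 h and 240.5 and 306 at 60 h. Without Cre the signals were 118 and 134 (vehicle, 36 h), 111 and 95.3 (4OHT, 36 h), 65.0 and 85.3 (vehicle, 60 h) and 114 and 105 (4OHT, 60 h). All 4 treated CreER arrays therefore stood above the other 12 arrays, and the CreER vehicle arrays lay within the range of those without Cre.

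By the dimmer one Ptpre went from 58.5 and 79.1 to 128 and 117 in CreER cultures at 36 h, and from 75.4 and 48.1 to 167 and 216 at 60 h. Without Cre its 8 arrays ran from 55.5 to 80.8 with a median of 67.4. The 4OHT difference in CreER cultures was 0.71 at 36 h and 1.43 at 60 h by this probe set and 0.83 and 1.45 by the brighter one. Without Cre the same differences were −0.17 and 0.06, and −0.26 and 0.47. At 60 h without Cre both 4OHT arrays lay above both vehicle arrays for the brighter probe set and overlapped them for the dimmer.

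**Figure D1:**
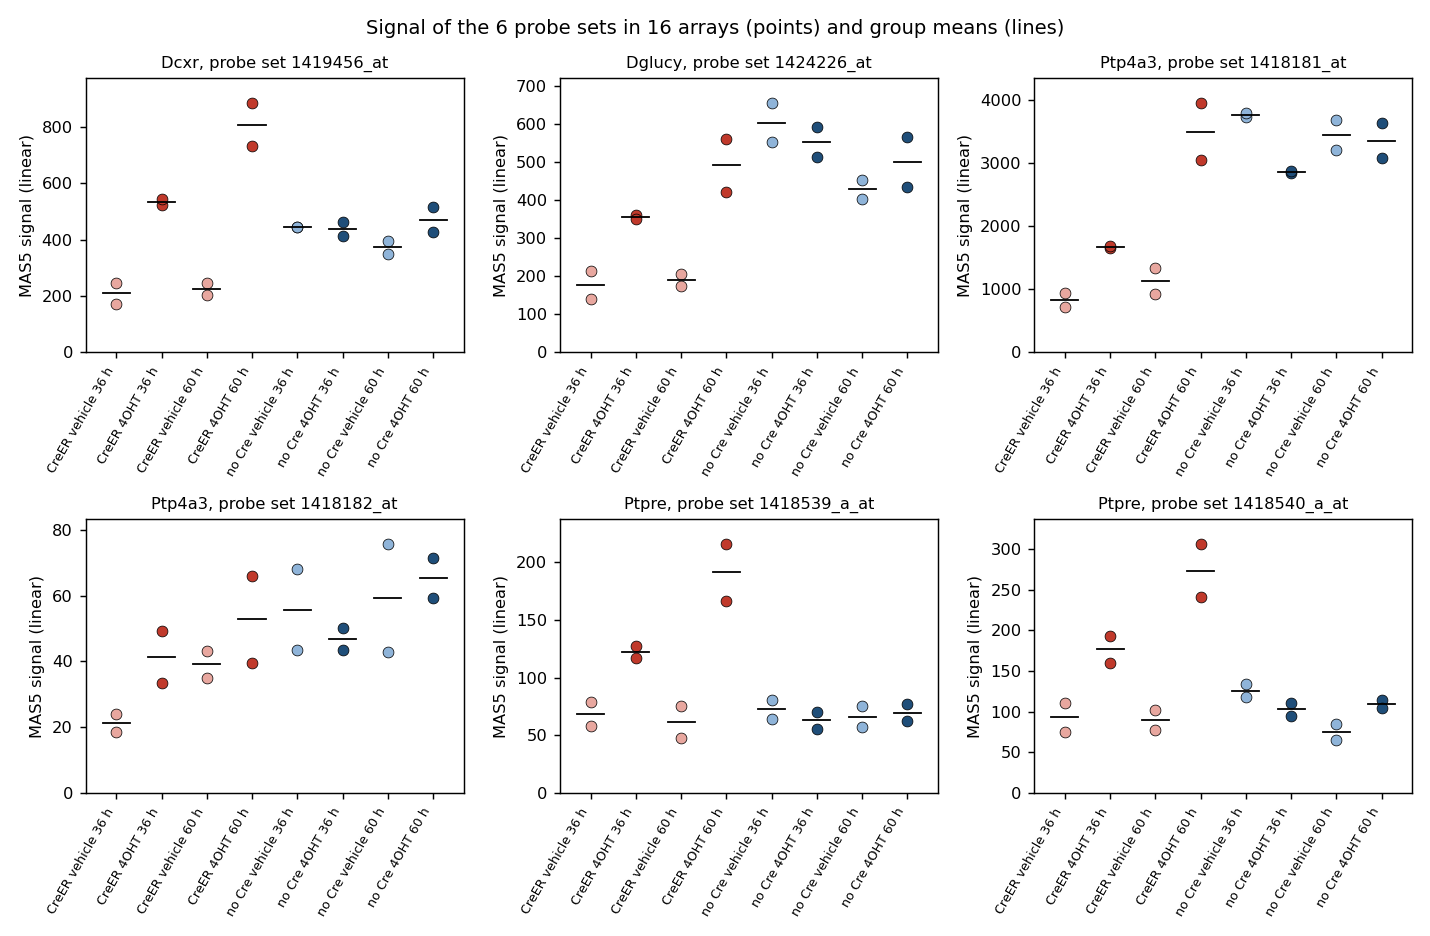
MAS5 signal on a linear axis (vertical) of each of the 6 probe sets in the 8 groups (horizontal), with a point for each array and a line at the mean of 2 arrays. Dcxr, Dglucy and both Ptp4a3 probe sets were lowest in CreER vehicle cultures at 36 h, whereas Ptpre stood out in CreER 4OHT cultures, where it reached 306.

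Over both times, Dcxr went from 217 ± 35.5 to 671 ± 169.5 in CreER cultures after 4OHT and Dglucy from 184 ± 33.4 to 424 ± 97.3 (SD, n = 4 each). Ptp4a3 (brighter probe set) went from 974 ± 256 to 2579 ± 1117 (SD, n = 4 each), the spread of the treated group holding both times. Ptpre went from 65.3 ± 14.5 to 157 ± 44.9 by the dimmer probe set and from 91.5 ± 17.9 to 225 ± 63.3 by the brighter one (SD, n = 4 each). For all 5 probe sets above the filter the treated arrays lay above the vehicle arrays at both times, which held for 4.06% of all 13576 probe sets tested, and all 4 treated arrays lay above all 4 vehicle arrays, which held for 2.39%. The members were chosen for this, so nothing is read from it. Over both times the differences ran from 1.07 for Ptpre (dimmer probe set) to 1.54 for Dcxr, against a median of −0.07 over all probe sets tested. The differences were larger at 60 h than at 36 h for each of these 5 probe sets, and smaller for the dimmer Ptp4a3 probe set.

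The astrocyte gene S100b was also higher in treated than in vehicle CreER cultures, with a mean of 203 under vehicle and 453 after 4OHT. Without Cre its mean was 591 under vehicle and 477 after 4OHT. The summed signal of 4 astrocyte markers ran from 345 to 462 in CreER vehicle arrays, from 487 to 886 in CreER 4OHT arrays and from 512 to 724 in arrays without Cre. S100b, at a mean of 431 over all arrays, made up most of that sum, and Gfap (at most 44.6) and Aqp4 (at most 18.5) stayed under the filter. Aldh1l1, the remaining marker, had a mean of 115 over all arrays (52.8 to 221). The part of astrocytes in the members' response was not tested, and in bulk RNA a change in the number of cells of a type and a change in RNA per cell cannot be told apart. Summed neuronal markers ran from 1449 to 1755 under vehicle and from 973 to 1488 after 4OHT in CreER cultures, which overlapped. Map2, at a mean of 1560 over all arrays, made up most of that sum, and Tubb3, Dcx, Rbfox3 and Snap25 stayed under the filter.

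The first test on arrays not used to choose the members was 4OHT against vehicle in cultures without Cre, which asks whether the drug alone moves these genes. Of the 5 member probe sets tested, 0 passed in the limma fit, which called 0.214% of the 13576 probe sets (0.0295% as higher and 0.184% as lower). In this unscaled fit an unadjusted p under 0.05 was found for 0 of the 5 and for 563 of the 13576. Dcxr was 408 ± 45.5 under vehicle and 454 ± 44.5 after 4OHT, a difference of 0.15 with a 95% interval of −0.12 to 0.42 (SD, n = 4 each; limma adjusted p = 0.999873). Dglucy was 517 ± 111 and 528 ± 69.3, a difference of 0.04 (−0.23 to 0.32). Ptp4a3 (brighter probe set) was 3597 ± 265 and 3104 ± 366, a difference of −0.22 (−0.45 to 0.02). Ptpre gave −0.05 (−0.38 to 0.28) by the dimmer and 0.11 (−0.20 to 0.41) by the brighter probe set. The sign of Dglucy turned in some fits with 1 array left out, and that of the dimmer Ptpre probe set in these and under both scalings. After median scaling and quantile normalization Dcxr gave 0.23 (SE 0.07) and 0.22 (SE 0.06), with limma adjusted p = 0.271 and 0.136. The brighter Ptp4a3 probe set gave −0.13 (SE 0.06) and −0.17 (SE 0.05), with adjusted p = 0.500 and 0.169. The SEs were smaller than in the unscaled fit, and neither gene passed. Of the 5, 0 had their 4OHT arrays above the vehicle arrays at both times, which held for 0.287% of the probe sets tested. At 60 h alone, Dcxr (0.32, SE 0.20) and the brighter Ptpre probe set (0.47, SE 0.22) had both 4OHT arrays above both vehicle arrays. At 36 h they gave −0.02 and −0.26. The test averages the times, 60 h alone was not tested, and the share of all probe sets separated at 60 h was not taken.

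These intervals lay below each member's difference in CreER cultures. The CreER differences chose the members and their own spread does not enter here, so nothing is read from this. The gap between the genotypes' responses was 1.39 for Dcxr, 1.09 for Dglucy, 1.54 for the brighter Ptp4a3 probe set, and 1.12 and 1.04 for the dimmer and brighter Ptpre probe sets, given without a test because the CreER response chose the members. For the dimmer Ptp4a3 probe set the gap was 0.47 with an SE of 0.28.

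**Figure D2:**
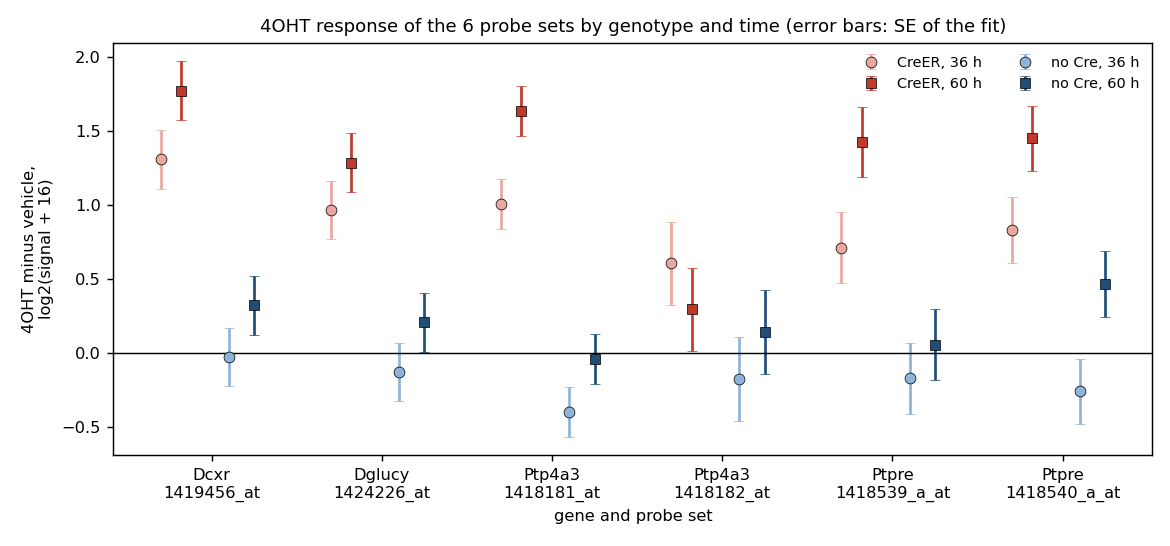
Difference of 4OHT and vehicle means on the log2(signal + 16) scale (vertical) for each probe set (horizontal), in CreER (red) and no-Cre (blue) cultures at 36 h (circles) and 60 h (squares); bars are the SE of the fit. The CreER differences reach 1.77 for Dcxr at 60 h, and those without Cre lie between −0.39 and 0.47.

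The members divided by where the CreER vehicle cultures stood against cultures without Cre. These values share the vehicle arrays with the contrast that chose the members and are given as a description. Under vehicle, Ptp4a3 (brighter probe set) in CreER cultures was at 22.0% of its level without Cre at 36 h and 32.7% at 60 h, Dglucy at 29.4% and 44.4%, and Dcxr at 47.0% and 60.4%. For these 3 probe sets all 4 CreER vehicle arrays lay below all 8 arrays without Cre, as 11.4% of the probe sets tested did (18.7% lay below the 4 vehicle arrays without Cre). Ptpre showed no such gap: its dimmer probe set stood at 94.8% and 93.1%, and its brighter one at 73.9% and 119.5%.

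After 4OHT, Dcxr and Ptpre stood above the cultures without Cre, and Dglucy and Ptp4a3 below them at 36 h. Dcxr in CreER cultures reached 120.2% of the no-Cre vehicle level at 36 h and 217% at 60 h, and Ptpre by its brighter probe set 140.3% and 364%. For Dcxr and both Ptpre probe sets all 4 CreER 4OHT arrays lay above all 8 arrays without Cre, as 3.85% of the probe sets tested did. The members were chosen for high signal in these CreER 4OHT arrays, so this is a description only. Dglucy reached 58.9% and 114.6%, and Ptp4a3 (brighter probe set) 44.3% and 101.6%, so that at 60 h these levels overlapped those without Cre.

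**Figure D3:**
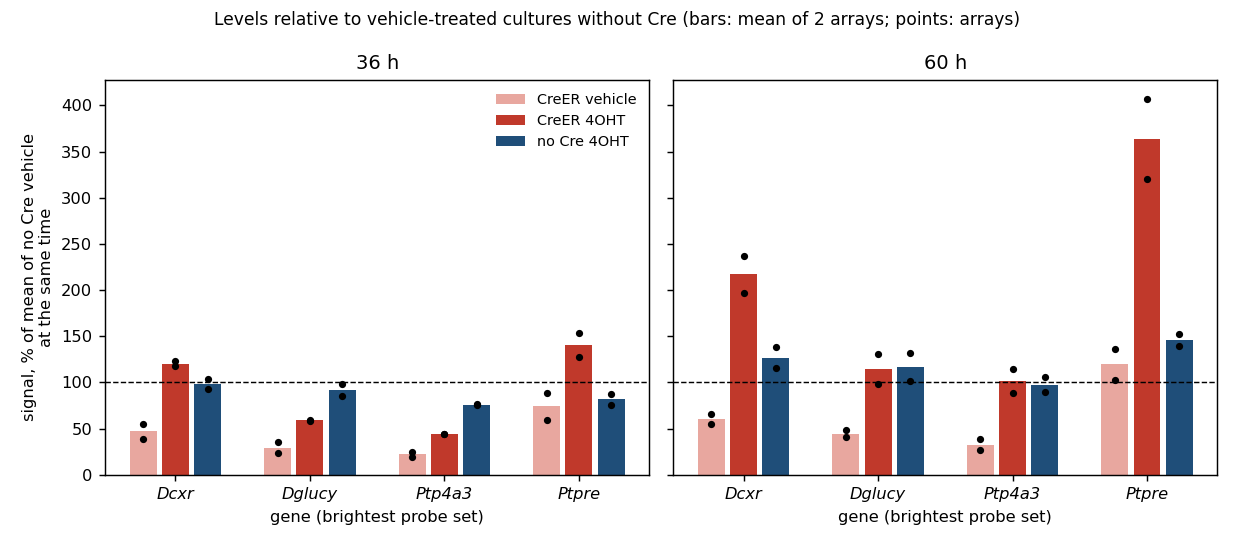
Signal in percent of the mean of vehicle-treated cultures without Cre at the same time (vertical; dashed line at 100), for the brightest probe set of each gene, at 36 h (left) and 60 h (right). Bars are means of 2 arrays and points the arrays; Ptp4a3 in CreER cultures goes from 32.7% under vehicle to 101.6% after 4OHT at 60 h, and Dcxr from 60.4% to 217%.

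The order of the 8 groups shows the same division. Dcxr was highest in CreER 4OHT at 60 h (807 ± 108), then in CreER 4OHT at 36 h (534 ± 15.9), each clear of the next group, followed by the no-Cre groups at 372 to 471 and the CreER vehicle groups at 225 ± 29.9 and 209 ± 51.3 (SD, n = 2 each). Among the no-Cre groups of Dcxr the first 3 in order overlapped. For Dglucy the order ran from no-Cre vehicle at 36 h (605 ± 71.4) to CreER vehicle at 36 h (178 ± 51.6; SD, n = 2 each), and the 5 highest groups overlapped from one to the next. For Ptp4a3 (brighter probe set), no-Cre vehicle at 36 h (3756 ± 42.1), CreER 4OHT at 60 h (3493 ± 631), no-Cre vehicle at 60 h (3439 ± 328) and no-Cre 4OHT at 60 h (3351 ± 396) overlapped in turn, and CreER 4OHT at 36 h (1665 ± 17.8) was clear of the groups on either side (SD, n = 2 each). For Ptpre, CreER 4OHT at 60 h and then at 36 h led by both probe sets, each clear of the next group.

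CreER was next compared with no Cre as a mean over treatments and times, which includes the CreER arrays whose 4OHT difference chose the members. This test called 51% of the probe sets tested, 39.6% as lower (5376) and 11.4% as higher (1544) in CreER cultures, and the median of all tested lay at −0.14. After median scaling the split was 4204 lower and 4158 higher, and after quantile normalization 4278 and 4348; the members below that passed kept their direction under both. Of the 5 member probe sets 4 passed. Ptp4a3 (brighter probe set) was lower, at 1777 ± 1139 against 3351 ± 396 (SD, n = 8 each; −1.13, SE 0.08, limma adjusted p = 2.32e-39). Dglucy was lower too, at 304 ± 145 against 522 ± 86.0 (SD, n = 8 each; −0.86, SE 0.10, limma adjusted p = 4.91e-17). For these genes the gap was −1.90 and −1.41 under vehicle and −0.36 and −0.32 under 4OHT. It was thus larger against the CreER vehicle arrays, which took part in the choice of the members, so nothing is read from these 2 calls. The other probe sets that passed were those of Ptpre, with 0.48 (SE 0.12) for the dimmer and 0.43 (SE 0.11) for the brighter one. Their gap was −0.08 and −0.09 under vehicle and 1.04 and 0.95 under 4OHT, so this mean restates the 4OHT difference that chose Ptpre, and nothing is read from its call. Dcxr did not pass, with −0.18 (SE 0.10, adjusted p = 0.124), and turned to 0.02 after quantile normalization and to 0.0015 with the actin ratio as a covariate.

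Time in culture was compared as 60 h against 36 h over both treatments. In CreER cultures Ptp4a3 (brighter probe set) went from 1245 ± 493 to 2308 ± 1426 (SD, n = 4 each), a rise of 0.74 (SE 0.12, limma adjusted p = 1.93e-07). It was 1 of 5 member probe sets to pass, where the fit called 5.14% of all tested (1.93% as higher and 3.21% as lower). The vehicle groups went from 825 ± 154 to 1123 ± 290.4 and overlapped, and the 4OHT groups from 1665 ± 17.8 to 3493 ± 631 and did not (SD, n = 2 each). The tested rise averages these groups, whose 4OHT difference chose the members. Dcxr (0.34, adjusted p = 0.159), Dglucy (0.27, adjusted p = 0.327) and Ptpre (0.22 and 0.27, adjusted p = 0.614 and 0.421) did not pass. Dcxr and Dglucy passed after scaling to a common median (0.34 and 0.27) and after quantile normalization (0.40 and 0.30), and Dcxr with the actin ratio as a covariate (0.44). These 3 fits called 2573, 2651 and 551 of the 13576 probe sets tested.

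Without Cre the same comparison passed for 0 of 5 member probe sets in the limma fit, which called 8.16% of all probe sets (5.31% as higher and 2.85% as lower). An unadjusted p under 0.05 was found for 1 of the 5, Dglucy, and for 3205 of all 13576 probe sets tested. Dglucy went from 579 ± 60.4 to 466 ± 71.2 (SD, n = 4 each), a difference of −0.31 (SE 0.14, adjusted p = 0.152). Dcxr (−0.07), Ptp4a3 (0.05 by its brighter probe set) and Ptpre (0.005 and −0.28 by its dimmer and brighter ones) did not pass. After scaling to a common median Dglucy (−0.34) and the brighter Ptpre probe set (−0.31) passed, and after quantile normalization that Ptpre probe set (−0.31) and Ptp4a3 (0.18). The median of all probe sets tested lay at −0.11. The actin ratio rose with time in these cultures, and with it as a covariate Dglucy turned to 0.39 and Dcxr to 0.38, neither past the threshold. Its part in the time comparison was not tested beyond this.

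The difference of the time changes between the genotypes called 4.24% of the probe sets tested (1.02% as higher and 3.22% as lower) and 1 of 5 member probe sets. Ptp4a3 (brighter probe set) rose with time by 0.69 more in CreER than in no-Cre cultures (SE 0.17, limma adjusted p = 0.00208). This call was lost with no filter (adjusted p = 0.0958) and with the actin ratio as a covariate (0.43, adjusted p = 0.517). Dglucy (0.58, adjusted p = 0.0671), Ptpre (0.21 and 0.56, adjusted p = 0.846 and 0.173) and Dcxr (0.42, adjusted p = 0.331) did not pass. Dglucy, Dcxr and the brighter Ptpre probe set passed under both scalings. Median scaling called 2001 and quantile normalization 2216 of the 13576 probe sets tested. This test too averages the CreER vehicle and 4OHT arrays, whose difference chose the members.

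The genes around the members in metabolism and in the phosphatase families were read from 6 lists of 95 entries, of which 60 had a probe set above the filter, and of these the brightest was used. After 4OHT in CreER cultures 2 of the 60 rose, 0 fell and 58 did not pass (limma), where 10.7% of all probe sets were called, 3.17% as higher and 7.57% as lower. The 2 that rose in this fit were Abat and Ptprv. After scaling to a common median 11 of the 60 rose and 3 fell, where 1500 of all 13576 probe sets rose and 2297 fell. After quantile normalization 15 rose and 2 fell, where 2135 of all rose and 2264 fell. In cultures without Cre 0 of 60 passed in limma. An unadjusted p under 0.05 was found for 3 of the 60 and for 563 of all 13576 probe sets tested. These 3 were Ptpn6 (−0.47, adjusted p = 0.771), Ptpn12 (−0.33, adjusted p = 0.865) and Ptprj (−0.28, adjusted p = 0.999873). Cbr3 (−0.17), Dhrs4 (−0.15), Prodh (−0.27), Gpt2 (−0.21) and Ptprs (−0.13) were the next named there by list.

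Next to Dcxr, none of the 5 measured genes of the uronate and polyol pathway passed, with a median of −0.15 against −0.07 for all probe sets tested. Ugp2, which makes UDP-glucose, gave −0.20 (SE 0.13), and Ugdh, which oxidises it, −0.18 (SE 0.14). Cryl1, the gulonate dehydrogenase that precedes Dcxr, gave −0.15 (SE 0.18), and Akr1a1, an aldehyde reductase of the same route, 0.02 (SE 0.10). Of 16 measured carbonyl reductases and short-chain dehydrogenases, the family of Dcxr, 0 passed, with a median of 0.07. Hsd17b11, a lipid-droplet steroid dehydrogenase, came nearest with 0.38 (SE 0.14, limma adjusted p = 0.054). Decr2 (0.26), Dhrs1 (0.23) and Pecr (−0.24) followed.

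For Dglucy, 15 genes of glutamate and proline metabolism were measured and 1 rose, with a list median of −0.02. Abat, the transaminase that breaks down GABA, rose from 52.2 ± 21.1 to 98.7 ± 44.0 (SD, n = 4 each), by 0.72 (SE 0.17, limma adjusted p = 5.86e-04) in CreER cultures and gave −0.19 without Cre. Glul, glutamine synthetase, gave −0.33 (SE 0.14, adjusted p = 0.10), Gpt, an alanine transaminase, 0.33 (adjusted p = 0.266) and Gad1, a glutamate decarboxylase, −0.22 (adjusted p = 0.514). The call of Abat was lost with no filter on dim probe sets (adjusted p = 0.072).

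Of the PRL phosphatases and their partners, none passed. Ptp4a2, another PRL phosphatase, was measured by 4 probe sets, which gave −0.24 to −0.12 in CreER cultures with limma adjusted p from 0.217 to 0.624. Ptp4a1 was not analysed here. The CNNM partners gave −0.22 (Cnnm3) and 0.11 (Cnnm2), and 0 of the 3 genes of this list passed. Its median was −0.22.

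Of 11 measured receptor protein tyrosine phosphatases other than Ptpre, 1 rose, and the list median was 0.11. Ptprv rose from 73.7 ± 13.2 to 110.5 ± 16.7 (SD, n = 4 each), by 0.50 (SE 0.17, limma adjusted p = 0.0308), and gave −0.02 without Cre. Its call was lost in each of 5 fits without 1 CreER array, with adjusted p up to 0.183 (vehicle at 36 h replicate 1 left out; the others were vehicle at 60 h replicate 1, both 4OHT arrays at 36 h and 4OHT at 60 h replicate 1), and with no filter (0.0718). Ptpra, the paralog of Ptpre, gave 0.25 (SE 0.12, adjusted p = 0.177) at a signal of 1402 to 2685. Ptpro gave 0.31, Ptprs 0.29 and Ptprz1, a phosphatase of neural progenitors and glia, −0.24, none past the threshold. Of 10 measured non-receptor phosphatases 0 passed, with a median of −0.08. Ptpn12 (−0.21), Ptpn2 (−0.19), Ptpn23 (0.16) and Ptpn11 (−0.09) had the smallest p among them.

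**Figure D4:**
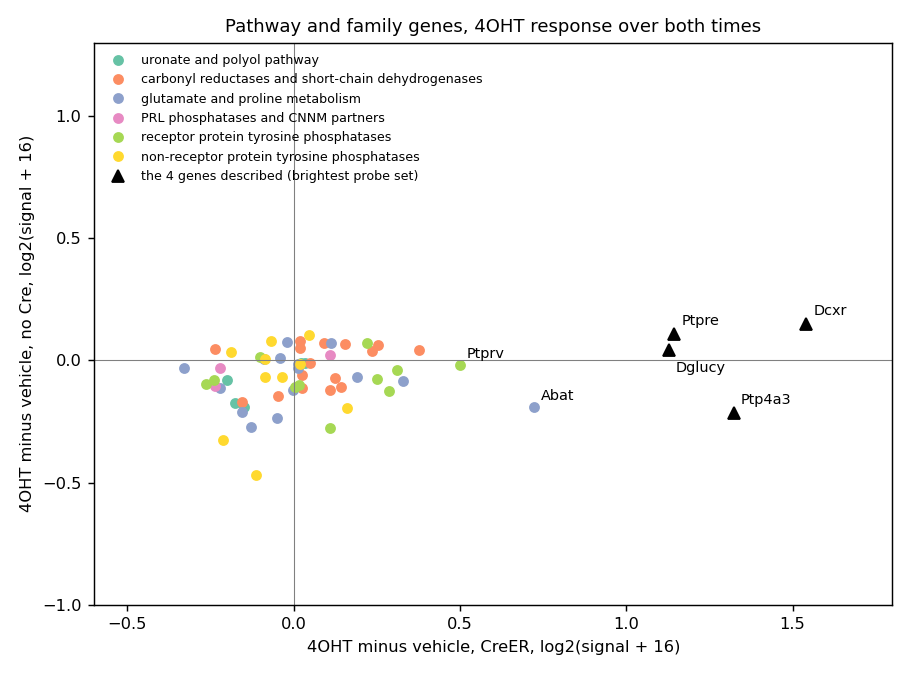
Difference of 4OHT and vehicle over both times on the log2(signal + 16) scale in CreER cultures (horizontal) and in cultures without Cre (vertical), with a circle for each of 60 pathway and family genes, coloured by list, and a triangle for the brightest probe set of each of the 4 genes described. Abat at 0.72 and Ptprv at 0.50 are the circles past the threshold in CreER cultures, and the triangles lie from 1.13 to 1.54 because these genes were chosen for it.

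The genes whose signals were most like each member were found by Pearson's r of log2 signal over the 16 arrays, among 7618 genes. These arrays share their genotype and treatment structure and their brightness, so r describes likeness in this data set and has no p. Dcxr was closest to Phlda3, a pleckstrin-homology protein that restrains Akt (r = 0.956), Ak1, an adenylate kinase (0.945), and Hrc, a calcium-binding protein (0.944). Phlda3 went from a mean of 519 to 1001 in CreER cultures after 4OHT and stood at 764 under vehicle without Cre. Dglucy was closest to the cyclin gene Ccng1 (r = 0.983), Fbxo25, an F-box protein (0.973), and Zmat3, an RNA-binding zinc finger protein (0.966). Ccng1 went from 902 to 1616 in CreER cultures and stood at 1775 under vehicle without Cre, the same order as Dglucy.

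Ptp4a3 (brighter probe set) was closest to the calcium-binding protein gene S100b (r = 0.980), the Max partner Mxd4 (0.979) and the exocyst subunit Exoc4 (0.965). Mxd4 went from 444 to 911 in CreER cultures and stood at 1434 without Cre under vehicle. Ptpre (brighter probe set) was closest to Fndc10 (r = 0.916), the pro-apoptotic BH3 gene Bbc3 (0.897) and the membrane protein gene Tmem50b (0.891). Bbc3 went from 89.9 to 214 in CreER cultures and stood at 107 under vehicle without Cre, with CreER 4OHT above the rest as for Ptpre. After quantile normalization each of these 12 genes kept a rank of 1 to 9 by r with its member.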

How the data were processed

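The authors deposited 1 signal intensity per probe set and array on a linear scale, made with MAS5 per the submitters' processing notes; its version and scaling target are not given in the sources used here. TRIzol extraction and ENZO biotin labelling are named per the labels. The brightest array was 1.44 times the dimmest by median. Values were not rescaled in the main fit, and several calls depend on this choice, as the fits with median scaling and quantile normalization show. Precision is limited by the number of arrays. The 22690 probe sets include 64 controls, which were dropped; 20380 others had 1 gene symbol, 691 several and 1555 none; symbols came from the platform annotation, and 20364 of 20393 (controls counted) matched RefSeq (GRCm38.p6) by Entrez ID, with 0 changed.

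Probe sets with a mean log2(signal + 16) at or above the 40th percentile, 6.07, were tested (13576). All 16 arrays entered 1 fit of 8 group means (limma 3.58.1, R 4.3.3; 8 residual degrees of freedom; mean-variance trend; two-sided; Benjamini-Hochberg over all probe sets at 0.05). The prior degrees of freedom were infinite, so each variance came from the trend alone. Tested on simulated data for 4OHT without Cre (13576 probe sets), the test found 43 of 67 shifts of 1.5-fold, 65 of 67 of 2-fold and all 66 of 3-fold, and made 7 false calls. For 4OHT in CreER cultures it found 38 of 67, all 67 and all 66, and made 11 false calls. The simulated noise was independent between probe sets and held no shared array brightness. The real arrays differed in brightness, so these rates may not hold for them. Alternatives were median scaling, quantile normalization, a pseudocount of 1, no filter, no trend, only the arrays compared, 1 probe set per gene, the actin ratio as a covariate, a replicate block and leaving out each array.

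The members and lists were chosen with earlier results of these data known. Named genes were all member probe sets, Ptp4a2 and Ptpra, the up to 4 genes per list with the smallest p in CreER cultures (the rule also allowed up to 2 without Cre) and the 3 genes most correlated with each member.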

Additional observations from a re-analysis of the deposited data

Results flagged for a closer look

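Ptp4a3, by its brighter probe set, changed with time differently in the 2 genotypes by the test of the difference itself, taken over both treatments. It rose from 36 h to 60 h by 0.74 in CreER cultures and by 0.05 in cultures without Cre on the log2 scale, a difference of 0.69 (SE 0.17, limma adjusted p = 0.00208; adjusted p from 8.70e-05 to 0.517 over the 24 alternative fits). In CreER cultures the vehicle groups (825 and 1123) overlapped between the times, and the 4OHT groups (1665 and 3493) did not. The difference of 4OHT and vehicle in these arrays chose the members, so nothing more is read from this call. The dimmer probe set gave a difference of 0.19 (SE 0.28) and was not tested. The actin 5′ to 3′ ratio also differed more between times in cultures without Cre than in CreER cultures; with it as a covariate the difference was 0.43 (adjusted p = 0.517).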

How the results depend on the processing

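All alternatives listed were run; using only the arrays compared gives no separate value for the 2 contrasts that use all arrays. The 4OHT differences in CreER cultures of the 5 member probe sets above the filter kept their sign under the alternatives run, from 0.94 (dimmer Ptpre probe set, 1 array left out) to 1.66 (Dcxr, 1 array left out); the dimmer Ptp4a3 probe set was not run. Replicate numbers did not pair the arrays throughout (28 pairs of groups, r from −0.18 to 0.41, 8 over 0.1). The highest r, 0.41, was that of vehicle and 4OHT without Cre at 36 h, so a pairing there was not excluded. A replicate block changed no member's call and gave 22 (4OHT without Cre), 925 and 609 (time without Cre and in CreER), 6671 (genotype), 472 (difference of time changes) and 1242 (4OHT in CreER) calls.

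Counts of calls moved more than the members did; the cause was not tested, except that 1 probe set per gene tests fewer probe sets. For 4OHT without Cre, 29 calls (4 higher, 25 lower) became 19 (11 and 8) with median scaling, 60 (33 and 27) with quantile normalization, 0 with no filter (967 at an unadjusted p under 0.05 in limma), 7 with no trend, 5 with 1 probe set per gene and 7 to 48 with 1 array left out. For time without Cre, 1108 (721 and 387) became 6147 (1224 and 4923), 3690 (1808 and 1882), 667 with no filter, 312 with 1 probe set per gene, 25 with the actin ratio, 1765 with only the arrays compared and 593 to 1370 with 1 left out. For time in CreER, 698 (262 and 436) became 2573 (673 and 1900), 2651 (1247 and 1404), 314 with no filter, 402, 453 and 337 to 949, in the same order without the actin ratio. For genotype, 6920 (1544 and 5376) became 8362 (4158 and 4204) with median scaling, 8626 (4348 and 4278) with quantile normalization, 3912 with 1 probe set per gene, 3320 (1404 and 1916) with the actin ratio and 6084 to 7433 with 1 left out. For the difference of time changes, 576 (139 and 437) became 2001 (1131 and 870), 2216 (966 and 1250), 208 with no filter, 163 with 1 probe set per gene, 85 with the actin ratio and 331 to 645. For 4OHT in CreER, 1458 (430 and 1028) became 3797 (1500 and 2297), 4399 (2135 and 2264), 842 with no filter, 942 with 1 probe set per gene, 917 with only the arrays compared and 761 to 1985. The lowest of these counts came without no-Cre vehicle at 36 h replicate 2 (7) or replicate 1 (593, 331), CreER 4OHT at 36 h replicate 2 (337) or replicate 1 (761), and no-Cre 4OHT at 36 h replicate 1 (6084).

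For the members, 4OHT without Cre turned to 0.016 and 0.015 for the dimmer Ptpre probe set with median scaling and quantile normalization; with 1 array left out it ran from −0.13 to 0.025, and Dglucy from −0.051 to 0.13. Time without Cre gave, with median scaling, −0.34 for Dglucy and −0.31 for the brighter Ptpre probe set (both past the threshold) and −0.020 for the dimmer one. With quantile normalization it gave −0.31 and −0.068 for these Ptpre probe sets, 0.18 for Ptp4a3 and 0.014 for Dcxr, and with the actin ratio 0.38 for Dcxr, 0.39 for Dglucy and 0.076 for the brighter Ptpre probe set. With 1 array left out it ran from −0.013 to 0.11 for Ptp4a3 and from −0.074 to 0.084 for the dimmer Ptpre probe set. Time in CreER passed for Dcxr at 0.34, 0.40 and 0.44 (median, quantile, actin) and for Dglucy at 0.27 and 0.30 (median, quantile). Genotype turned for Dcxr to 0.017 with quantile normalization and 0.0015 with the actin ratio, and ran from −0.24 to −0.12 with 1 array left out, passing without CreER vehicle at 36 h replicate 2 (−0.24, adjusted p = 0.0483). The difference of time changes passed with median scaling and quantile normalization for Dcxr (0.45 and 0.38), Dglucy (0.61 and 0.52) and the brighter Ptpre probe set (0.58 and 0.58). For Ptp4a3 it no longer passed with no filter (0.69) or the actin ratio (0.43), and for Dglucy it ran from 0.45 to 0.72 with 1 array left out, passing without CreER vehicle replicate 2 at either time, or replicate 1 of CreER or no-Cre 4OHT at 60 h. The cause of these shifts was not tested.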
